A study of Mus musculus with 4 samples.

Results

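Cytosolic ribosomal protein genes encode the proteins of the ribosome that reads nuclear messenger RNA. They were taken from the gene list of the data by symbol, as names that start with Rpl or Rps, go on with a number and then end or close with a single a, l or x, plus Rpsa, Rplp0, Rplp1 and Rplp2. The rule found 80 of 32285 listed genes, 49 of the large subunit and 31 of the small subunit, with Rpsa counted in the small one. All 80 matched the annotation by identifier as protein-coding genes, on 19 chromosomes, with 14 of them on chromosome 7. Rpl10l had 0 UMIs and Rpl39l had 16 UMIs over all sections, 7, 1, 4 and 4 on days 1, 4, 7 and 14. Both are copies known mainly from the testis, and the other 78 genes had at least 1000 UMIs and were tested. A gene called Rps4l, the copy of Rps4x in rodents, was not among the listed genes.

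The data were spatial RNA counts from heart sections of adult ICR mice, an outbred strain, 12 weeks old and with no genetic change named in the labels. In every mouse the left anterior descending coronary artery had been tied off for good, which causes a myocardial infarction (MI), under isoflurane and with buprenorphine for pain. The groups were days 1, 4, 7 and 14 after ligation, each with 1 section of 1 mouse, so day, mouse, slide area and cutting level cannot be told apart. No sham-operated or uninjured heart was analysed here, and sections were taken at a level where the injury could be seen.

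A Visium spot is a small region that captures RNA of several cells, and each captured molecule is counted once as a UMI (unique molecular identifier) near its 3′ end, so that counts were not divided by gene length. Of 9102 spots, 7503 remained after removal of spots with over 1% hemoglobin UMIs, between 1679 and 2086 per section. The sections held 9292678 to 15713779 UMIs, with a median of 5188 to 8799 per spot. The 4 sections shared 1332 of the 3178 spot barcodes, which are grid positions on the slide and not cells. Fewer cells of a kind and less RNA per cell cannot be told apart in such counts.

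The ribosome is built from ribosomal RNA and one copy of most of these proteins, and their genes are known to be expressed together at high levels in every cell. Their messenger RNAs are known for a C at the first base followed by a run of C and T, the 5′ terminal oligopyrimidine tract, through which growth signals set their translation. Striated muscle is a known exception to the uniform set, because the adult heart and skeletal muscle use Rpl3l in place of Rpl3, the large-subunit protein close to the site where peptide bonds are made.

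The bases around the annotated starts are shown for some of the genes named in the results below. They are given because the tract is a feature that the choice of genes did not use. RefSeq promoter windows of build GRCm38.p6 were found for 60 of the 80 genes. Each line gives 30 bases with the annotated start after the first 15, and capitals mark a run of at least 5 bases that begins with C, goes on in C or T and starts within 10 bases of the annotated start. The search followed the strand of the gene only.
Rpl13a, chr7:45128731-45128760, minus strand: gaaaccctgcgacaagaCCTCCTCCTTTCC
Rps26, chr10:128626492-128626521, minus strand: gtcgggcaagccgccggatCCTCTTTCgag
Rps12, chr10:23787195-23787224, minus strand: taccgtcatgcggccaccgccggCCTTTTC
Rps2, chr17:24720048-24720077, plus strand: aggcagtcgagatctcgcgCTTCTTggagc
Rpsa, chr9:120127751-120127780, plus strand: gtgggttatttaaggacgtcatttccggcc
Rpl3l, chr17:24727811-24727840, plus strand: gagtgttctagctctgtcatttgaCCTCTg

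Such a run lay near the start in 38 of the 60 genes, 63.3%, against 34.4% of the 27025 genes with a window. It began at the annotated first base in 13 of the 60, 21.7%, against 3.01% of all. The letters CTTTCC, part of the Rpl13a run, lay within 15 bases of the start in 10 of the 60, 16.7%, against 1.67% of all. Rpsa, one of the 5 genes with the largest rise below, had no run in its window, and Rpl3l had one at 1 of its 2 annotated starts. Rpl24 and Rps13, named below but not shown, had no run either. Annotated starts were not measured here, and neither was translation. Windows for Rpl3, Rpl36 and Rps29 were not among those used.

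Ribosomal protein genes took up a larger part of the RNA where the contractile genes of heart muscle were low. Spots of each section were ranked on the share of their UMIs in Myh6, the main myosin heavy chain of the adult mouse heart, and Myl2, the ventricular myosin light chain, and split into 4 quartiles of equal spot number, the lowest with the least Myh6 and Myl2. From the lowest to the highest quartile, the 80 genes together took 8.84%, 5.54%, 3.67% and 3.66% of all UMIs on day 1. On day 4 they took 10.1%, 5.76%, 3.92% and 4.03%, and on day 7 8.79%, 5.59%, 4.46% and 4.42%. On day 14 the values were 5.85%, 4.27%, 4.23% and 4.33%. The lowest quartile was above the other 3 in each of the 4 sections, and the upper 2 quartiles were close to each other.

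The exact 95% Clopper-Pearson intervals cover counting error only and were narrow, for example 10.1% to 10.2% in the lowest quartile of day 4. Between the lowest and the highest quartile the share was 2.42, 2.51, 1.99 and 1.35 times as large on days 1, 4, 7 and 14, with a geometric mean of 2.01. With spots ranked on Tnnt2, Actc1 and Tnni3 instead, the ratios were 1.73, 2.37 and 1.92 on days 1, 4 and 7. The day 14 ratio under that rank is not reported here. Mitochondrial transcripts took 8.73% to 29.8% of UMIs in the lowest quartile and 27.1% to 33.2% in the highest, which moves the share of every other gene. As a share of UMIs outside those transcripts, the ribosomal genes took 10.9%, 11.1%, 9.78% and 8.33% in the lowest quartile and 5.02%, 6.04%, 6.07% and 6.45% in the highest. With the ranking genes left out of the total as well, the ratios were 2.10, 1.77, 1.55 and 1.27 on days 1, 4, 7 and 14. Within the lowest quartile, the interquartile range of single spots was 7.85% to 10.0% for day 1 and 8.96% to 11.1% for day 4. It was 7.01% to 10.4% for day 7 and 4.71% to 10.6% for day 14. The day 14 quartile was the most mixed of the 4, and its median spot held 2329.5 UMIs, against 8278 in the highest quartile of that day. The day 14 ratio of 1.35 was 1.11 with spots of at least 2000 UMIs and 1.07 with quartiles taken within 5 classes of spot depth, and on days 1, 4 and 7 the ratios within depth classes were 2.36, 2.12 and 1.61. With no hemoglobin filter the day 14 ratio was 1.55.

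**Figure D1:**
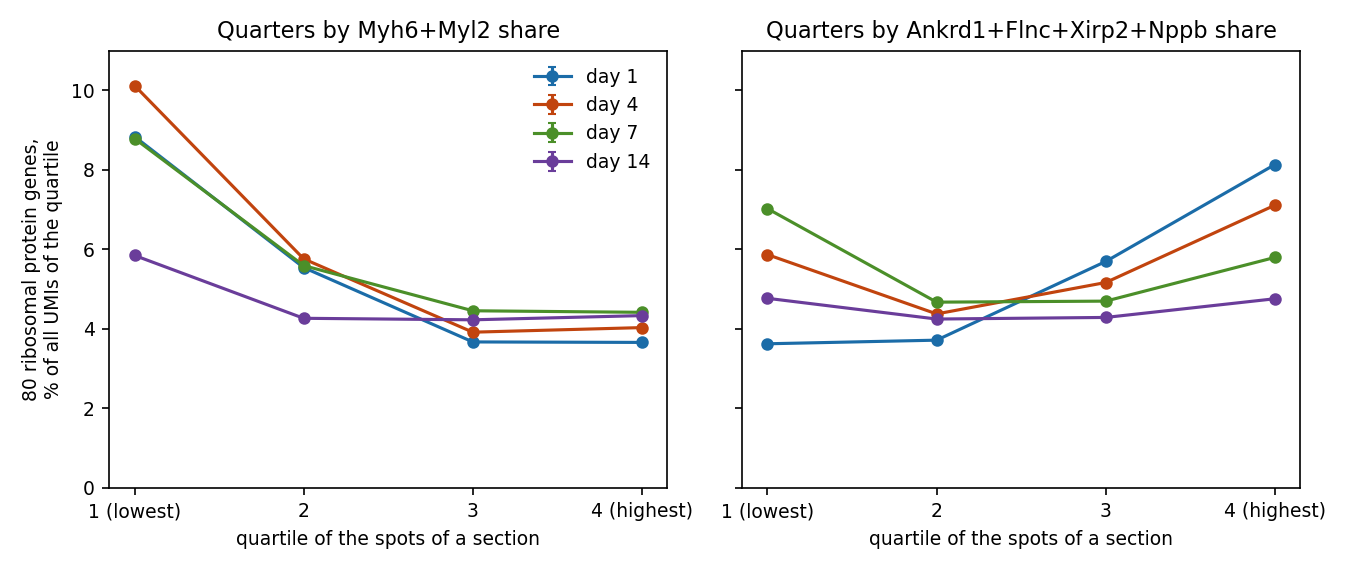
Share of all UMIs in the 80 ribosomal protein genes (vertical axis, percent) in the 4 quartiles of spots of each section (horizontal axis), ranked on Myh6 and Myl2 on the left and on Ankrd1, Flnc, Xirp2 and Nppb on the right. Points are sums over the spots of a quartile and exact 95% intervals are smaller than the points. On the left all 4 lines fall from the lowest quartile, from 10.1% to 4.03% on day 4 and from 5.85% to 4.33% on day 14. On the right the day 1 line rises from 3.63% to 8.14% while the other 3 lines are lowest in the middle quartiles.

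The lowest quartile was not the same tissue on each day. Cardiomyocyte markers (Tnni3, Tnnt2, Actc1, Mb, Atp2a2, Myl3, Fabp3, Ckmt2) summed to 3.39%, 1.18%, 1.00% and 4.68% of UMIs there on days 1, 4, 7 and 14, against 5.82% to 6.66% in the highest quartile. Fibroblast markers (Col1a1, Col1a2, Col3a1, Dcn, Postn, Lum, Pdgfra) summed to 0.231%, 3.71%, 4.06% and 0.920% there, against 0.115% to 0.171% in the highest quartile. Macrophage markers summed to 0.114% to 0.665% and to 0.0341% to 0.0516% in the same order of quartiles. Genes of stressed heart muscle outside the ranking (Nppa, Myh7, Acta1, Clu) summed to 0.337% to 1.86% in the lowest quartile and to 0.127% to 0.211% in the highest. On day 1 the ribosomal share in the lowest quartile was thus 8.84% beside a fibroblast sum of 0.231%, and on day 7 it was 8.79% beside a fibroblast sum of 4.06%. The part of these cell kinds in the ribosomal share was not tested.

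In the test over the 4 sections, 71 of the 78 tested ribosomal protein genes were higher in the lowest quartile, 1 was lower and 6 did not pass. UMIs were summed per section and quartile and compared with edgeR's quasi-likelihood test, with the section as a block and p-values adjusted by Benjamini-Hochberg over 4767 genes. Of all tested genes, 67.6% passed at an adjusted p under 0.05, 35.2% higher and 32.5% lower. The median log2 difference was 0.63 over the ribosomal protein genes and 0.05 over all tested genes. By subunit, 44 of 47 large-subunit genes and 27 of 31 small-subunit genes were higher, with medians of 0.65 and 0.61. Without normalization beyond library totals both medians shifted up, to 1.04 for the ribosomal protein genes and 0.46 for all genes. Under that scaling 77 ribosomal protein genes were called higher and 1 lower. The share of all genes called is not reported here and their median rose too, so that count is not comparable with 71. The count of 71 fell to 23 higher, beside 24.1% of all genes, when genes with at least 10 UMIs were kept. It fell to 19, beside 23.8%, when the 2 middle quartiles were left out of the fit.

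As shares of all UMIs, given as counts per 1000000 UMIs (CPM), 77 of the 78 genes were higher in the lowest than in the highest quartile of every section. The same was true of 49.97% of all tested genes. For 76 of the 78 genes the 4 lowest-quartile values all lay above the 4 highest-quartile values, which held for 33.8% of all tested genes. Leaving Rpl3 and Rpl3l aside, the CPM ratio between the quartiles ran from 1.70 to 3.62 in the day 1 section and from 1.50 to 4.43 in the day 4 section. It ran from 1.06 to 2.99 at day 7 and from 1.02 to 1.76 at day 14. Their order was alike in different sections: over these 76 genes the normalized differences of any 2 sections had Spearman correlations of 0.63 to 0.82, with Pearson values of 0.67 to 0.86. The points are genes of the same sections, are not independent and carry no p-value. The difference was nearly unrelated to abundance, with a Spearman correlation of -0.03 against the log of a gene's UMIs.

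**Figure D2:**
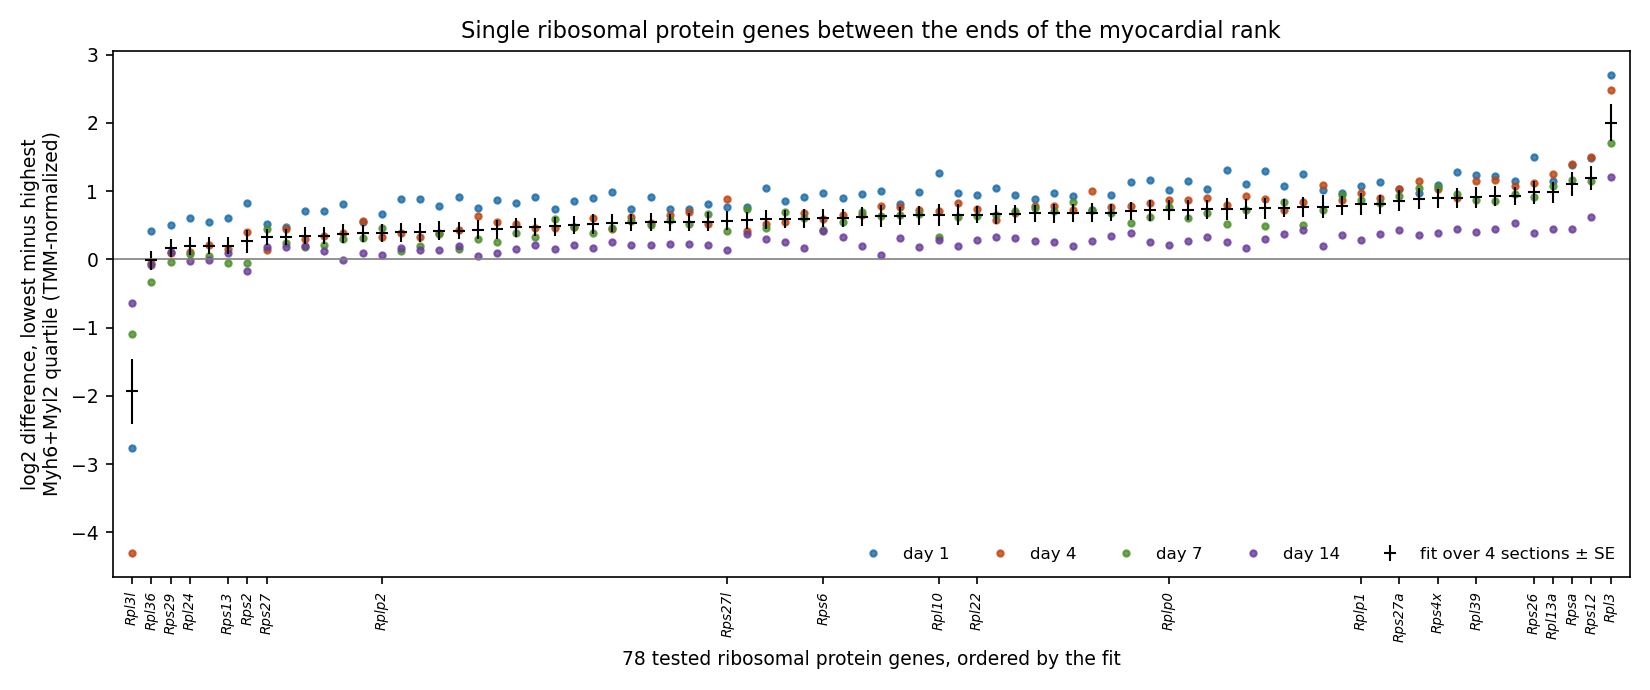
Normalized log2 difference between the lowest and the highest Myh6 and Myl2 quartile (vertical axis) for the 78 tested ribosomal protein genes (horizontal axis, in order of the fit, with the names of those described in the text). Colored points are the 4 sections and the black crosses the fit over them ± SE. Rpl3l lies at -1.93 and Rpl3 at 2.00, apart from the other 76 genes, which range from -0.01 to 1.19. Day 14 points are mostly closest to 0.

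Rpl3 and Rpl3l stood at opposite ends of the set. Rpl3 (ENSMUSG00000060036, GRCm38 chr15:80077791-80091868, minus strand) had 755, 738, 540 and 270 CPM in the lowest quartile on days 1, 4, 7 and 14. In the highest quartile it had 90.1, 84.6, 124 and 101 CPM, so that the groups did not overlap. The log2 difference was 2.00 (SE 0.27, adjusted p = 8.59e-05 by edgeR), higher in 4 of 4 sections. Rpl3l (ENSMUSG00000002500, GRCm38 chr17:24727820-24736143, plus strand) had 74.9, 22.5, 197 and 189 CPM in the lowest quartile and 398, 287, 315 and 255 CPM in the highest. Its values did not overlap either, and it was lower by 1.93 on the log2 scale in the lowest quartile, a log2 difference of -1.93 (SE 0.48, adjusted p = 0.00325 by edgeR), lower in 4 of 4 sections. Among all tested genes, 12.9% were lower with no overlap. Rpl3l is known from striated muscle and the spots were ranked on Myh6 and Myl2, so its direction was not independent of the rank.

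The ratio of Rpl3l to Rpl3 UMIs crossed 1 between the quartiles of each section. In the lowest quartile it was 0.0992, 0.0305, 0.365 and 0.701 on days 1, 4, 7 and 14, and in the highest it was 4.42, 3.40, 2.53 and 2.52. The difference in the log2 ratio was -5.48, -6.80, -2.79 and -1.85, with a mean of -4.23 ± 2.30 (SD, n = 4 sections). It was negative in 4 of 4 sections, and the two-sided exact sign-flip permutation test gave p = 0.125, the smallest value that 4 sections allow. The direction of this ratio was likewise not independent of the rank. Fast skeletal muscle, which also uses Rpl3l, was present in the lowest quartile of day 7, where its marker list summed to 2.03% of UMIs. Without the 118 spots of that section with at least 10 UMIs of that list, Rpl3l had 57.5 CPM in the lowest quartile and the day 7 difference was -4.80. In the other 3 sections no spot reached that level. With no hemoglobin filter the day 14 difference was -2.64.

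**Figure D3:**
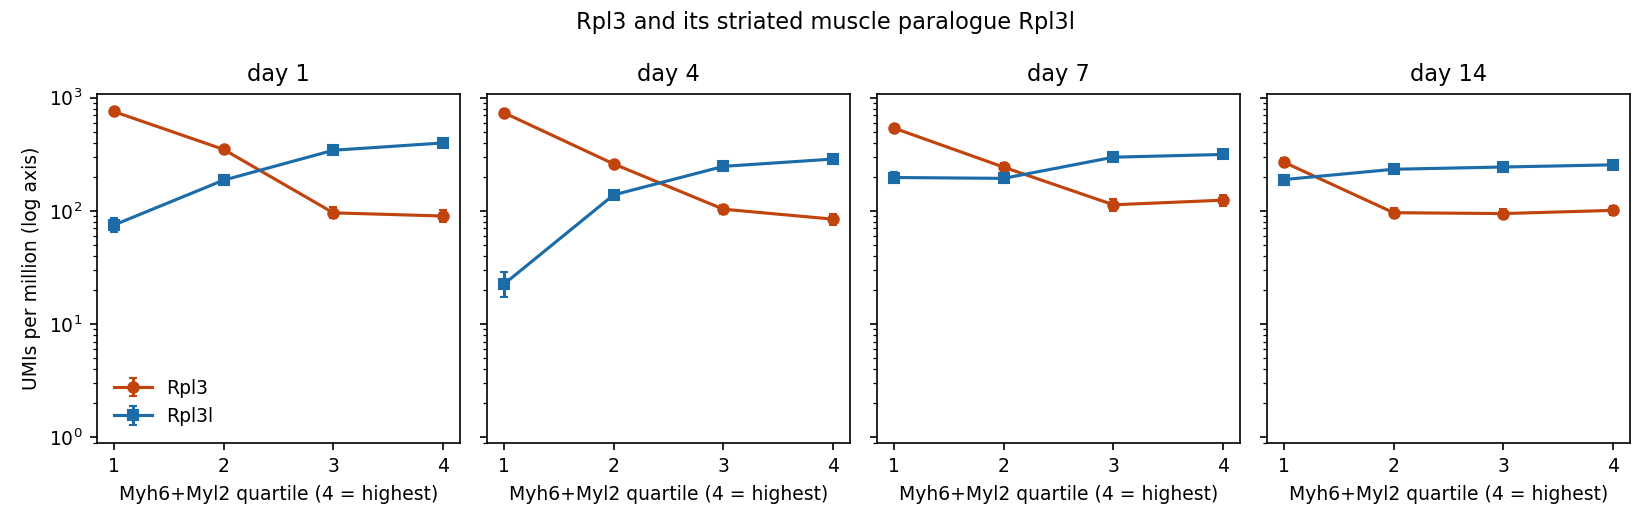
CPM of Rpl3 and Rpl3l (vertical axis, logarithmic) in the 4 Myh6 and Myl2 quartiles (horizontal axis) of each section, with exact 95% Poisson intervals that cover counting error only. The lines of the paralogues cross in each section, with Rpl3 at 755 and Rpl3l at 74.9 in the lowest quartile of day 1 and at 90.1 and 398 in the highest. The crossing is smallest on day 14.

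The next largest rises were in small-subunit genes and in Rpl13a. Rps12, a protein of the small subunit, had 1562, 2242, 1813 and 954 CPM in the lowest quartile on days 1, 4, 7 and 14 and 433, 506, 613 and 541 CPM in the highest. Its log2 difference was 1.19 (SE 0.17, adjusted p = 0.000119 by edgeR), higher in 4 of 4 sections. Rpsa, a small-subunit protein also known as a laminin receptor, had 1987, 2062, 2114 and 1012 CPM in the lowest quartile and 593, 503, 707 and 648 CPM in the highest. In both genes the day 14 value was the lowest of the lowest-quartile values and still above each of the highest-quartile values. The log2 difference of Rpsa was 1.10 (adjusted p = 0.000213). Rpl13a, known also for translational silencing after interferon, rose by 0.98 (adjusted p = 0.000175), from 502 to 599 CPM in the highest quartiles to 791 to 1862 CPM in the lowest. Rps26, a small-subunit protein at the exit of the messenger RNA, rose by 0.98 (adjusted p = 0.000368), from 414 to 538 CPM to 807 to 1550 CPM.

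The stalk proteins, which recruit translation factors to the large subunit, rose together. Rplp1 rose by 0.81 (adjusted p = 0.00071), Rplp0 by 0.72 (adjusted p = 0.00116) and Rplp2 by 0.38 (adjusted p = 0.0184) on the log2 scale. The call of Rplp2 was lost without day 1 (adjusted p = 0.179), without day 4 (adjusted p = 0.0533) or without day 7 (adjusted p = 0.106). The calls of Rplp0 and Rplp2 were also lost with genes of at least 10 UMIs (adjusted p = 0.0574 and 0.614), and those of Rplp0, Rplp1 and Rplp2 when the 2 middle quartiles were left out (adjusted p = 0.0639, 0.0616 and 0.242). Rps27a, which encodes a fusion of ubiquitin and a small-subunit protein, rose by 0.86 (adjusted p = 0.000298). Rps6, the small-subunit protein phosphorylated downstream of growth signals, rose by 0.61 (adjusted p = 0.00126), and Rpl22 by 0.66 (adjusted p = 0.000726). The calls of Rps6 and Rpl22 were lost under the same 2 settings, with adjusted p from 0.0575 to 0.114.

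Other genes with a copy among the ribosomal proteins moved with their copy or alone. Rps4x, on the X chromosome, rose by 0.89 (adjusted p = 0.000218). Rps27 rose by 0.32 (adjusted p = 0.0288) and its copy Rps27l, which is known as a target of p53, by 0.57 (adjusted p = 0.00301). The Rps27 call was lost without day 1 (adjusted p = 0.222) or without day 7 (adjusted p = 0.157), and under 7 other settings. Rpl10, a protein added late to the large subunit, rose by 0.65 (adjusted p = 0.0034) and Rpl39 by 0.91 (adjusted p = 0.000329), while Rpl10l was listed at 0 and Rpl39l was too low to test. With the 10 UMI minimum and with only the compared quartiles fitted, respectively, the calls of Rpl10 (adjusted p = 0.102 and 0.0773) and Rps27l (adjusted p = 0.132 and 0.0848) were lost.

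Among the genes for which the test did not pass were Rpl36, Rps29, Rpl24, Rps13 and Rps2, with log2 differences of -0.01, 0.17, 0.20, 0.20 and 0.26 and adjusted p from 0.164 to 0.941 by edgeR. Their normalized values were near 0 or below it on day 7 or day 14 and above 0 on day 1, where Rps2 had 0.83 and Rpl36 had 0.41. On the CPM scale Rpl36 had 1683, 1442, 1238 and 1178 CPM in the lowest quartile and 988, 961, 1170 and 1082 CPM in the highest. Rps29, the most abundant of the 80 genes over all sections, had 1974, 2164, 1849 and 1782 CPM against 1089, 1307, 1427 and 1429 CPM. The lowest-quartile values of both genes were thus above all their highest-quartile values before normalization, and with library totals Rpl36 was at 0.39 (adjusted p = 0.0279). Rps2 was the gene whose CPM values overlapped, with 1316, 1241, 934 and 1004 CPM against 578, 601, 725 and 980 CPM. A ribosomal protein gene can share reads with its processed pseudogenes, so that the level of a single gene is less certain than its ratio between quartiles.

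Genes that work with the ribosome were read beside the set, and most of the cytosolic ones moved the same way. Of 7 ribosomal genes outside the symbol rule, 6 were higher in the lowest quartile, with a median log2 difference of 0.63. Rack1, the scaffold protein of the small subunit, rose by 1.11 (adjusted p = 0.000126) and Fau, a fusion with the small-subunit protein eS30, by 0.87 (adjusted p = 0.000332). Rps3a1 rose by 0.63 (adjusted p = 0.000881) and Rpl22l1, the copy of Rpl22, by 0.64 (adjusted p = 0.0104). Of 26 genes of ribosome biogenesis, 15 were tested, 11 were higher and none was lower, with a median of 0.68. Npm1, a nucleolar chaperone, rose by 1.09 (adjusted p = 0.00027), Nhp2, a protein of the RNA-modifying complexes, by 1.34 and Ncl, nucleolin, by 0.54 (adjusted p = 0.0154).

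Of 38 translation factors, 19 were higher and 6 lower, with a median of 0.27. Eef1a1, which brings transfer RNA to the ribosome, rose by 2.14 (adjusted p = 2.04e-05), and its muscle and nerve copy Eef1a2 fell by 1.07 (adjusted p = 0.000188). Eef1a1 had 2021, 3823, 2969 and 1208 CPM in the lowest quartile and 382, 382, 449 and 354 CPM in the highest. Eef1a2 had 527, 147, 347 and 284 CPM in the lowest quartile and 754, 323, 550 and 386 CPM in the highest, and these groups overlapped. The difference in the log2 ratio of Eef1a2 to Eef1a1 was -3.25 ± 0.94 (SD, n = 4 sections) and negative in 4 of 4 sections (two-sided exact sign-flip permutation p = 0.125, the smallest possible). Because Eef1a2 is the muscle copy, the direction of this ratio was not independent of the rank either. Without the fast skeletal muscle spots of day 7, the day 7 difference moved from -3.39 to -4.16. The mean was then -3.44 ± 1.06 (SD, n = 4 sections). The helicase gene Eif4a1 rose by 1.07 and its copy Eif4a2 was lower, at -0.41 (adjusted p = 0.00474), although with library totals Eif4a2 was at -0.01 (adjusted p = 0.919). Pabpc1, the main poly(A)-binding protein, rose by 2.33, Eef2, the translocation factor, rose by 0.54 (adjusted p = 0.00182) and Tpt1 was at 0.13 (adjusted p = 0.405), which library totals turned into a call (0.53, adjusted p = 0.00434).

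Mitochondrial ribosomal protein genes went the other way. Of 78 such genes, 76 were tested, 65 were lower in the lowest quartile, 1 was higher and 10 did not pass, with a median log2 difference of -0.73. Of all tested genes, 32.5% were lower and 35.2% higher. Mitochondrial transcripts took 8.73% to 29.8% of UMIs in the lowest quartile and 27.1% to 33.2% in the highest. Spots were ranked on heart muscle genes, so the direction of the mitochondrial ribosomal list was not shown to be independent of the rank. The median was -0.49, -0.93, -0.96 and -0.39 on days 1, 4, 7 and 14. Mrps35, a protein of the mitochondrial small subunit, fell by 1.28, and the gene that was higher was Mrpl52, at 0.55. Scaled by library totals, which moves the median of all genes from 0.05 to 0.46, the median was -0.33 for the mitochondrial ribosomal proteins, with 40 lower and 3 higher. Under that scaling the medians of the cytosolic ribosomal genes outside the rule, the biogenesis genes and the translation factors were 1.04, 1.10 and 0.68, and of the translation factors 30 were higher and 1 lower. The share of all genes called under that scaling is not reported here, so its counts are not comparable with those of the main fit.

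**Figure D4:**
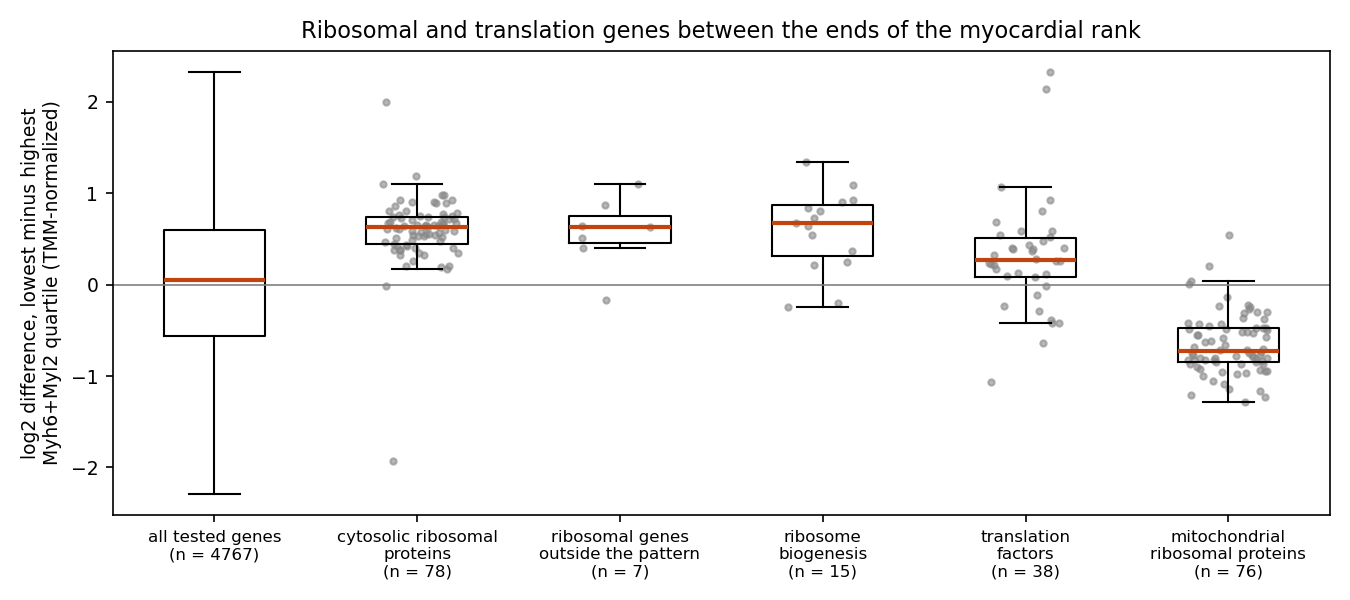
Normalized log2 difference between the lowest and the highest Myh6 and Myl2 quartile (vertical axis) for all tested genes and 5 gene sets (horizontal axis). Boxes show the quartiles with the median, whiskers reach the last gene within 1.5 box lengths, and points are genes (not drawn for all tested genes). Cytosolic ribosomal proteins sit around 0.63 and mitochondrial ribosomal proteins around -0.73, with all tested genes around 0.05.

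Among cell markers in the same test, 8 of 8 cardiomyocyte genes were lower, with a median of -2.05. That fall was largely set by the rank itself, since Myh6 and Myl2 are cardiomyocyte genes too. Of 7 fibroblast genes 6 were higher (median 3.64), and all 7 tested of 8 macrophage genes were higher (median 1.86). Of 4 genes of stressed muscle 3 were higher (median 2.59), and all 8 tested of 10 fast skeletal muscle genes were higher through day 7, with Myh1, Myh2 and Myh4 at 0 in the lowest quartile of the other 3 sections. Both tested smooth muscle genes and the 1 tested neutrophil gene were higher, of 6 endothelial genes 1 was higher and 3 lower, and of 4 tested hemoglobin genes none passed.

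The second rank asked whether ribosomal protein genes follow the stress response of heart muscle. Spots were ranked on Ankrd1, Flnc, Xirp2 and Nppb, genes known to rise in strained myocardium next to an infarct. From the lowest to the highest quartile of that rank, the 80 genes took 3.63%, 3.72%, 5.70% and 8.14% of UMIs on day 1. They took 5.87%, 4.38%, 5.17% and 7.11% on day 4, 7.03%, 4.67%, 4.70% and 5.80% on day 7 and 4.77%, 4.25%, 4.29% and 4.76% on day 14. The share rose through the rank on day 1 alone, and on the other days both ends were above the middle quartiles. The ratio of the highest to the lowest quartile was 2.24, 1.21, 0.825 and 0.998 on days 1, 4, 7 and 14. The day 7 and day 14 ratios turned to 1.04 and 1.08 with quartiles within 5 classes of spot depth, and to 1.22 and 1.16 with spots ranked on Acta1, Myh7 and Clu, where days 1 and 4 had 2.22 and 1.70.

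Over the 4 sections no ribosomal protein gene passed the test in this rank, beside 1.3% of all 4765 tested genes by edgeR, 1.01% higher and 0.294% lower. At an unadjusted p under 0.05, 1 of the 78 genes passed, beside 663 of all genes, and DESeq2 also called 0. The share of all genes that DESeq2 called is not reported here. The median log2 difference was 0.17, against -0.01 over all genes, and it was -0.06 without day 1. Section by section, 77, 71, 0 and 20 of the 78 genes were above 0 in the order of the days, with medians of 0.87, 0.14, -0.27 and -0.04. Of all tested genes, 52.1%, 43.3%, 48.0% and 49.3% were above 0 in the same order. Rpl3 had normalized differences of 2.58, 0.13, -0.48 and -0.12 on days 1, 4, 7 and 14, and Rpl3l had -2.30, -1.34, -0.12 and -0.14. With spots ranked on Acta1, Myh7 and Clu in place of these genes, 41 of the ribosomal protein genes were higher and 1 lower, beside 20.7% and 21.7% of all genes.

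The lowest quartile of the stress rank held different tissue on different days. Fibroblast markers summed to 0.115%, 1.36%, 2.46% and 0.442% of UMIs in the lowest quartile on days 1, 4, 7 and 14 and to 0.207%, 1.60%, 1.08% and 0.251% in the highest. Cardiomyocyte markers summed to 2.88% to 6.26% in the lowest and to 3.23% to 5.93% in the highest. The stressed muscle list outside the ranking passed in 3 of 4 genes, with a median of 2.59. Fast skeletal muscle genes were lower in 6 of 8 tested, again through day 7, where their sum was 1.21% of UMIs in the lowest quartile. In no other marker list did a gene pass.

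To hold the amount of muscle closer to constant, the same stress rank was taken within the spots above their section's median of Myh6 and Myl2. There the 80 genes took 3.59%, 3.68%, 4.30% and 4.14% in the lowest stress quartile and 3.96%, 4.53%, 4.70% and 4.58% in the highest on days 1, 4, 7 and 14, higher in 4 of 4 sections. Outside mitochondrial transcripts the ratios were 1.09, 1.11, 1.00 and 1.05. By edgeR, 8 of 78 genes were higher and 2 lower, beside 7.22% and 7.81% of all genes and 15.0% in either direction. The median log2 difference was 0.03, against 0.00 over all genes.

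Rpl3 and Rpl3l were again at the ends. Rpl3 had 78.4, 79.7, 94.2 and 90.4 CPM in the lowest and 114, 134, 160 and 111 CPM in the highest stress quartile on days 1, 4, 7 and 14. The groups did not overlap, and the log2 difference was 0.43 (SE 0.08, adjusted p = 2.83e-05 by edgeR), higher in 4 of 4 sections. Rpl3l had 387, 275, 305 and 262 CPM in the lowest and 343, 252, 294 and 244 CPM in the highest, lower within each section although the values overlapped between sections. Its log2 difference was -0.26 (SE 0.05, adjusted p = 5.66e-05). The size of this fall depended on the scaling. On day 7 the normalized difference was -0.25, while the CPM went from 305 to 294, with 366 and 414 UMIs. The log2 ratio of Rpl3l to Rpl3 fell by 0.72, 0.88, 0.82 and 0.39 on days 1, 4, 7 and 14, a mean difference of -0.70 ± 0.22 (SD, n = 4 sections, two-sided exact sign-flip permutation p = 0.125, the smallest possible). The ratio stayed above 1 in all quartiles of these spots, from 1.84 in the highest stress quartile of day 7 to 4.94 in the lowest of day 1.

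The number of ribosomal protein genes called in these spots was near the share over all genes, so the calls are not a result about the set. The other 7 genes that were higher had small differences, from 0.12 for Rpl13a to 0.14 for Rps23, with Rpl41, Rps12, Rps16, Rps20 and Rpl39 between them. Rpl41, the smallest ribosomal protein, had 785, 833, 894 and 1079 CPM in the lowest and 937, 1095, 1029 and 1312 CPM in the highest stress quartile (adjusted p = 0.00318). Rps2 was lower by the normalized values, at -0.12 (adjusted p = 0.0189 by edgeR). Its CPM rose from 582 to 642 on day 4 and from 688 to 753 on day 7. On these days its CPM thus moved against the direction of the normalized fit. Its CPM on the other days is not reported here. Eef1a1 rose by 0.34 there (adjusted p = 7.25e-07) and Eef1a2 was at 0.00 (adjusted p = 0.988). Of the mitochondrial ribosomal protein genes, 8 of 76 were lower and none was higher, beside 7.81% and 7.22% of all genes. Of the translation factors 1 was higher and 1 lower. Of the outside ribosomal genes Fau was higher (0.17, adjusted p = 0.00174), and of the biogenesis genes none passed.

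Other markers moved in the same spots. Of 7 fibroblast genes 6 were higher in the highest stress quartile, with a sum of 0.132% to 0.268% of UMIs against 0.0901% to 0.153%, and of 7 tested macrophage genes 6 were higher, with 0.0426% to 0.0963% against 0.0329% to 0.0508%. Both tested smooth muscle genes and all 4 stressed muscle genes were higher, and 7 of 8 cardiomyocyte genes were lower and 1 higher, with a list median of -0.12. Of 6 endothelial genes 1 was lower, of 4 tested hemoglobin genes 3 were lower, and no skeletal muscle or neutrophil gene passed. Mitochondrial transcripts took 29.7% to 39.0% of UMIs in the lowest and 24.6% to 32.4% in the highest stress quartile. The part of these cell kinds in the Rpl3 and Rpl3l differences was not tested.

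**Figure D5:**
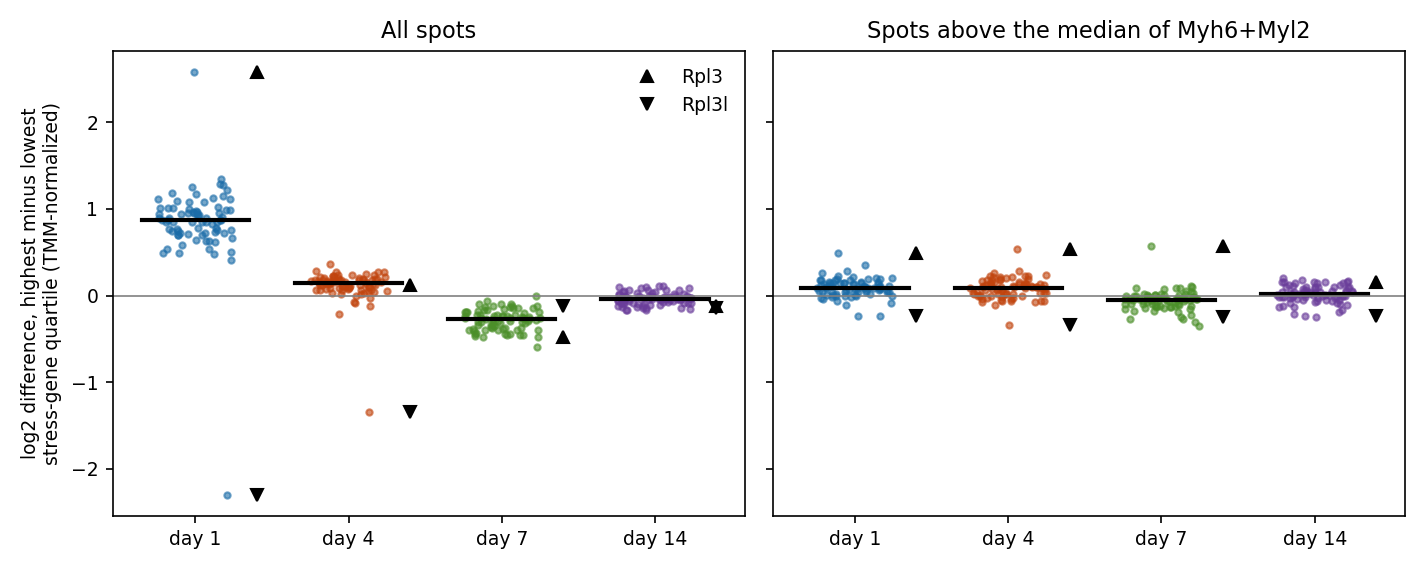
Normalized log2 difference between the highest and the lowest stress-gene quartile (vertical axis) for the 78 tested ribosomal protein genes in each section (horizontal axis), over all spots on the left and in the spots above the median of Myh6 and Myl2 on the right. Each point is a gene, bars are medians, and triangles beside the points repeat Rpl3 (up) and Rpl3l (down). On the left the median runs from 0.87 on day 1 to -0.27 on day 7. On the right the medians lie between -0.05 and 0.09, with Rpl3 above and Rpl3l below 0 on each day.

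Across days, with 1 mouse each and no test, the summed share over all spots was 5.33%, 5.59%, 5.45% and 4.48% on days 1, 4, 7 and 14. The median spot held 4.34%, 4.74%, 4.86% and 4.38%, and 95% of spots on day 1 held at least 3.03%. In the highest Myh6 and Myl2 quartile, which has the most muscle, the shares were 3.66%, 4.03%, 4.42% and 4.33%. Mitochondrial transcripts took 26.7%, 29.4%, 24.0% and 34.1% of UMIs, and outside them the ribosomal share over all spots was 7.28%, 7.92%, 7.17% and 6.80%. Over whole sections, Rpl3 had 310, 259, 220 and 120 CPM and Rpl3l had 255, 188, 258 and 237 CPM on days 1, 4, 7 and 14. A UMI of at least 1 of the 80 genes was found in every spot of days 1, 4 and 7 and in 2085 of 2086 spots of day 14, and the median spot held between 72 and 76 of them.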

How the data were processed

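Spatial gene expression was measured in 4 heart sections. According to the submitters' processing notes and the study's methods, the authors made the counts with Space Ranger 1.3.0 on build mm10 and merged the sections in Seurat 4.1.1. The deposited files hold UMI counts per gene and spot, with no normalization. The annotation release is not given in the sources used here. Sections were grouped by the day in the labels. Following the study's thresholds, spots with over 1% of UMIs in 8 hemoglobin genes were removed. The 4769 genes kept had a total of at least 1000 UMIs in the spots left. The study does not name its hemoglobin genes, so the 8 were chosen here and the spots removed can differ from those it removed. The study's further removal of spots by eye was not repeated.

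Spots of each section were ranked within the section and summed into 4 quartiles, with ties in a random order of fixed seed, which gave 16 sums. Sums were compared with edgeR 4.0.16 (TMM normalization, robust quasi-likelihood fit, section as block, R 4.3.3), with the ranking genes left out of the test and p-values adjusted by Benjamini-Hochberg over all other kept genes at a threshold of 0.05. The 4 sections are 4 days, so that the spread between sections holds day and mouse together, and p-values describe differences between quartiles that recur over them. Shares have exact Clopper-Pearson and single genes exact Poisson 95% intervals, which cover counting error only, and no interval covers the spread between mice. The fit was tested on simulated data, and the outcome of that test is not reported here. Coordinates are from GENCODE vM21 on GRCm38, and promoter windows are from RefSeq.

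The ribosomal protein genes, the gene lists and the tests were chosen with earlier results of these data known. Named were, for each rank, up to 5 genes with the strongest rises and up to 5 with the strongest falls at an adjusted p under 0.05 with the same direction in 4 sections, genes with a paralogue in the set, Rplp0, Rplp1, Rplp2, Rpsa, Rps27a, Rps6, Rpl13a and Rpl22, related translation genes and genes under the UMI minimum, of which some are not reported here. The genes given as not passing the test, Mrps35, Mrpl52, Nhp2, Pabpc1, Eif4a1, Eif4a2 and the genes called above the median of Myh6 and Myl2 were named after their values were seen. Alternatives covered scaling, tool (DESeq2 1.42.0), gene and spot filters, ranking genes, spot depth and each section left out.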

Additional observations from a re-analysis of the deposited data

Results flagged for a closer look

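The ratio of the summed ribosomal protein share between the highest and the lowest stress-gene quartile went in opposite directions in different sections. It was 2.24 on day 1 and 1.21 on day 4, where the highest quartile had the larger share, and 0.825 on day 7, where the lowest quartile had it. The opposite directions did not hold under all settings. The day 7 ratio was 1.04 with quartiles within 5 classes of spot depth. It was 1.22 with Acta1, Myh7 and Clu as ranking genes, where the ratios of all 4 days were above 1. The fast skeletal muscle spots of day 7 stayed in that rank. With 1 mouse per day the difference between days was not tested. In the lowest quartile of day 7, fibroblast markers summed to 2.46% and fast skeletal muscle markers to 1.21% of UMIs, against 0.115% and 0.000369% in the lowest quartile of day 1, and their part in the difference was not tested.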

How the results depend on the processing

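In the Myh6 and Myl2 rank the count of higher ribosomal protein genes was 71, beside 35.2% of all tested genes. It moved to 23 with genes of at least 10 UMIs and to 19 with only the 2 compared quartiles fitted. Both counts are near the share of all genes called higher in those settings, given above. The count ran from 51 to 71 with each section left out in turn, where the share of all genes is not reported here. Throughout, 1 gene was lower. The median of 0.63 was 1.04 with library totals, ran from 0.48 to 0.75 with each section left out, and kept its sign in all alternatives run. In the stress rank, 1 gene (Rpl3l) was lower with quartiles taken within 5 classes of spot depth, where the share of all genes is not reported here. With other ranking genes 41 were higher and 1 lower, beside the shares of all genes given above. In the spots above the median of Myh6 and Myl2, 8 were higher and 2 lower, beside 7.22% and 7.81% of all genes. The median over all spots, 0.17, ran from -0.06 to 0.32 with each section left out. The day shares were 5.26%, 5.41% and 4.52% on days 1, 7 and 14 with no hemoglobin filter, 5.66% and 4.47% on days 7 and 14 with a 0.5% filter, and 5.29%, 5.38% and 4.39% on days 1, 7 and 14 with spots of at least 2000 UMIs. Outside mitochondrial transcripts they were 7.28%, 7.92%, 7.17% and 6.80% on days 1, 4, 7 and 14. The geometric mean ratio of shares ran from 1.87 to 2.29 and from 0.999 to 1.39 in the 2 ranks with each section left out, and the difference in the log2 ratio of Rpl3l to Rpl3 from -5.02 to -3.37. The ratio of shares in the stress rank turned from 0.998 to 1.08 with spots of at least 2000 UMIs on day 14. The cause of these moves was not tested. Single named genes gave 663 values under alternatives for 34 results. Of these values, 618 kept the call or stayed without one, and values without a call could change sign. For example, Rpl10 in the stress rank was at 0.26 over all spots and at -0.04 in the spots above the median of Myh6 and Myl2. The call was lost in 26 values (7 with genes of at least 10 UMIs and 8 with only the 2 compared quartiles) and gained in 19. None passed the test in the opposite direction. Ranks without mitochondrial transcripts, an alternative chosen after seeing the data, gave 66 higher genes, and the share of all genes beside it is not reported here. No paired analysis was possible because each day has 1 sample and no replicate numbers link samples, while the section block compares quartiles of the same section. Rpl10l and Rpl39l were too low to test at this depth.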
